A study of Homo sapiens with 23 samples.

Results

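The 78 human genes with a symbol of MRPL or MRPS, digits and an optional letter encode proteins of the mitochondrial ribosome, and all 78 were among the 36084 genes (19849 of them protein-coding) quantified in 6 RNA-seq libraries. The rule that picks them uses the symbol alone and no measured value, although this family was taken up with earlier results of these data known. By the current nomenclature 51 of them encode proteins of the large subunit and 26 of the small subunit, with MRPS18A and MRPS30 in the large subunit despite their names. MRPS36 was assigned to neither, since its product is now known as a component of the 2-oxoglutarate dehydrogenase complex. All 78 passed the filter on low counts.

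The cells were SCi-NCCITs, a derivative of NCCIT, a human embryonal carcinoma line that resembles pluripotent stem cells. SCi-NCCITs carry piggyBac transposons for a doxycycline-inducible dCas9-KRAB, a nuclease-dead Cas9 fused to a repressor domain. They also carry piggyBac transposons for constitutively expressed single guide RNAs against SVA transposons. The paper states that the guides target the LTR5Hs family of transposable elements as well. Both the untreated and the treated cells carry the fusion and the guides. RNA was compared between 3 libraries without doxycycline and 3 libraries after 72 hours of 2 µg/mL doxycycline, and YY1 (4 libraries), OCT4 (2 libraries) and H3K9me3 (5 libraries, 1 of them from NCCITs labelled without a treatment) were measured by ChIP-seq. The labels do not say whether replicates came from separate cultures, so p-values measure only the spread between these libraries. No library came from doxycycline-treated cells without dCas9-KRAB or guides, so the drug and the repression it induces cannot be told apart.

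The mitochondrial ribosome translates the mRNAs encoded in mitochondrial DNA, all of which specify subunits of the respiratory chain and ATP synthase. Its rRNAs come from mitochondrial DNA, while all of its proteins are encoded in the nucleus, made in the cytosol and imported. Many of these proteins descend from those of the bacterial ribosome, and the others were added in the mitochondrial lineage. Doxycycline is a tetracycline, a class of antibiotics that binds the small subunit of bacterial ribosomes and also inhibits translation in mitochondria.

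The promoters were searched for sequence motifs, which the choice by symbol had not used. RefSeq promoters (GRCh38.p14, from 250 bases before to 50 bases after the start site) were held for 69 of the 78 members. The others were MRPL2, MRPL10, MRPL13, MRPL15, MRPL21, MRPL23, MRPL35, MRPS28 and MRPS36. The letters AANATGGC on either strand, a core of the motif bound by the zinc finger factor YY1, stood in 25 of these 69 promoters (36.2%), against 9.1% of 11988 protein-coding genes tested and 6.8% of all 27305 promoters of that length. Of the 28 matches in members, 22 (78.6%) lay on the strand of the gene within 50 bases after the start site, beginning 7 to 36 bases from it (median 15.5). Among protein-coding genes tested, 44.6% of 1183 matches lay in that place. The promoter with a match could be placed in hg19 for 24 members. In 17 of these the ATG inside the match was also an annotated start codon of the gene. That share was not counted in other genes. From the letters alone, a YY1 site and the surroundings of a start codon cannot be told apart in these members.

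The windows of 30 bases around the match nearest to the start site are shown for the 3 highest expressed members (MRPL47, MRPL51 and MRPL20), for MRPL1 and MRPL50 at the low end, and for MRPS18A, MRPS18B and MRPS30, whose subunit or site does not follow from their symbol. The capitals mark the YY1 letters, and the RefSeq coordinates in parentheses are those of GRCh38.p14.
MRPL47: agttatgcgaaAACATGGCtgcggccggtt (chr3:179604609-179604638, minus strand)
MRPL51: gggtaaggcccAAGATGGCtgtcttcgcct (chr12:6493223-6493252, minus strand)
MRPL20: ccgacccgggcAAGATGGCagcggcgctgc (chr1:1407260-1407289, minus strand)
MRPL1: ccggagtgcccAACATGGCggcggccgtaa (chr4:77862835-77862864, plus strand)
MRPL50: ggatctcatcgAAGATGGCggcgcgatctg (chr9:101398577-101398606, minus strand)
MRPS18A: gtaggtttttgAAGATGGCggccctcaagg (chr6:43687764-43687793, minus strand)
MRPS18B: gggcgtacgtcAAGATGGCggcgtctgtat (chr6:30617852-30617881, plus strand)
MRPS30: aatcgcgggcaAAGATGGCggcggccaggt (chr5:44808949-44808978, plus strand)
In all of these the capitals read in the direction of the gene, just after the start site.

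The first 250 bases of the promoter are given for MRPL52, which had the highest YY1 peaks among members called higher with doxycycline, and for MRPS6, which had the largest fold change and low YY1 peaks. The capitals again mark the YY1 letters.
MRPL52: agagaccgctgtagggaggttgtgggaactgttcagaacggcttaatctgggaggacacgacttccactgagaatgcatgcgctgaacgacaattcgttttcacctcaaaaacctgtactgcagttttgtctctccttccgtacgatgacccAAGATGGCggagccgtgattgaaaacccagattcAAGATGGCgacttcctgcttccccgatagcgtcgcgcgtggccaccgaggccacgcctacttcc (chr14:22829637-22829886, plus strand)
MRPS6: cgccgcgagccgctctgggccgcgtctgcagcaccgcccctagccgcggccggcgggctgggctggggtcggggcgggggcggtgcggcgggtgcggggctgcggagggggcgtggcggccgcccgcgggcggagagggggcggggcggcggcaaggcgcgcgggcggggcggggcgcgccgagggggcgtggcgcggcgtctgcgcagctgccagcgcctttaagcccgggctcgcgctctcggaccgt (chr21:34073328-34073577, plus strand)
MRPL52 held 2 copies on the strand of the gene, beginning at positions -98 and -64. The 300 bases of MRPS6 held none, and 82.0% of them were G or C.

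2 further motifs of regulators of mitochondrial genes were searched on both strands. CCGGAAGT, bound by GABP (also called NRF2) and other ETS factors, stood in 11 of 69 member promoters (15.9%), against 7.7% of protein-coding genes tested and 4.4% of all promoters. GCGCANGCG, bound by NRF1, also stood in 11 (15.9%), against 13.0% and 7.8%. In the plot of motif positions the GABP and NRF1 matches are spread over the promoter, mostly before the start site, while the YY1 matches gather after it. The letters of the 3 motifs differ, and a match is a description of sequence and not a measured site.

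YY1 occupied nearly all of these promoters. A promoter was taken as 500 bp to either side of the start of the transcript with the highest TPM (a level scaled to library size and corrected for transcript length) in untreated cells, and occupied where a peak of the deposited list overlapped it. Peaks of YY1 were present at 74 and 68 of 78 member promoters in the libraries without doxycycline, and at 71 and 73 in those with it. Over 15186 protein-coding genes tested the shares were 63.3% and 59.3% without and 67.3% and 68.3% with doxycycline. Both untreated libraries had a peak at 67 members, where 54.8% of protein-coding promoters did, and both treated libraries at 71, where 62.5% did. All 4 libraries had one at 67 members (85.9%, against 53.2% of protein-coding genes).

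No member had a YY1 peak in both untreated libraries and in neither treated one, or the reverse. Among 15186 protein-coding genes 23 (0.2%) and 330 (2.2%) did, so the absence among 78 members is near the background. MRPL14, MRPL42 and MRPS18B had no YY1 peak in any library. The motif and peak windows do not cover the same promoter where the RefSeq start lies over 500 bp from the start used here, which was so for MRPL14 (1185 bp), MRPL18 (-655 bp), MRPL30 (-4992 bp), MRPL34 (-10294 bp), MRPL42 (-1675 bp) and MRPS2 (-717 bp). MRPL42 has the YY1 letters 9 bases after its RefSeq start. MRPS18B has them 24 bases after its RefSeq start, which is also the start used here, and still had no YY1 peak. Since expressed genes are more often occupied, 8198 other protein-coding genes whose mean TPM lay in the range of the members (9.46 to 392.8) were taken for comparison after the values were seen. They share this range with the members but were not matched to them in the distribution of levels within it. Of these, 80.4% and 75.6% had a YY1 peak without doxycycline, 83.2% and 83.9% with it, and 70.2% in all 4 libraries. Their promoters held the YY1 letters in 11.6%, the ETS letters in 10.4% and the NRF1 letters in 16.3% of 6840 cases.

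The YY1 peaks of members were also high. The median fold enrichment of the highest peak at an occupied member promoter was 25.8 and 38.0 without doxycycline, and 34.7 and 44.1 with it. In the genes of the same range of levels the medians were 8.85 and 9.42, and 9.79 and 10.5. The mean over libraries was over 50 for 21 members and under 10 for 20, so the members were not alike. Fold enrichment is not corrected for differences in depth or background between libraries, so no difference between treated and untreated cells was read from it.

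**Figure D1:**
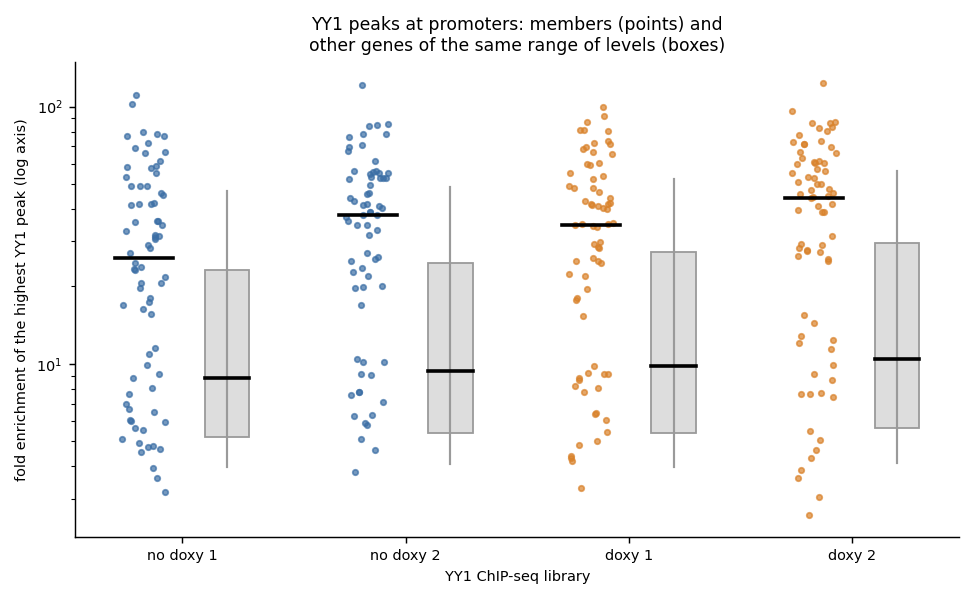
Fold enrichment (log axis) of the highest YY1 peak within 500 bp of the start site in each of 4 YY1 ChIP-seq libraries. Points are members with a peak (blue without, orange with doxycycline), black bars are medians, and grey boxes and whiskers give the 25th to 75th and 10th to 90th percentiles of other protein-coding genes in the range of TPM of the members. The medians of the members (25.8 to 44.1) lie above those of the boxes (8.85 to 10.5) in every library.

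The highest mean fold enrichment of a member was that of MRPL52, whose peaks reached 103 and 122 without and 91.7 and 123 with doxycycline. MRPL36 followed, with 111 and 83.9 without and 99.5 and 82.9 with the drug. MRPS11 and MRPL46 had identical values (77.2 and 78.5, then 81.2 and 86.0), since the same peak overlapped the 500 bp windows of both. Its summit lay at 13 to 26 bp from the start of MRPL46 and at -374 to -361 bp from that of MRPS11. At MRPS6 the values were 3.18 in an untreated library, where the other had no peak, and 4.18 and 3.61 in the treated ones. MRPL28 had a peak of 5.65 in 1 untreated library and none in the other 3. MRPL33 was also low, with 5.09 and 6.33 without and 4.31 and 12.8 with doxycycline.

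The position of the YY1 summits was compared with the motif and with the start site. For 22 members with both a match and peaks, the distance from the most upstream match to the summit had a median of 3.5 and 12 bp in the untreated libraries, and of 10.5 and 11 bp in the treated ones. It was at most 50 bp for 20 and 21 of them without and for 21 and 21 with doxycycline. Most of these matches lie just after the start, and the summit was within 50 bp of the start used here at 18 and 17 of 23 members with the letters without doxycycline and at 20 and 18 with it. Among members without the letters it was so at 17 of 43 and 20 of 36 without and at 17 of 40 and 22 of 41 with doxycycline. Closeness to the motif and closeness to the start cannot be told apart for most of these promoters. A peak in all 4 libraries was found at 23 of the 25 member promoters with the letters (92.0%) and at 36 of 44 without them (81.8%), against 86.8% and 51.9% of protein-coding genes.

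H3K9me3, the repressive mark that KRAB domains recruit, was absent from the peak lists at the members. None of the 78 promoters overlapped an H3K9me3 peak in any of the 5 libraries. Over protein-coding genes, 508 of 15186 (3.3%) did so in at least 1 library, and 0.915% in both treated libraries. With shares this small, 0 of 78 members is near the background. For H3K9me3 no share was taken over genes in the same range of TPM. OCT4, a pluripotency factor, had a peak at 35 member promoters (44.9%) in the untreated library, where 37.0% of protein-coding promoters and 47.5% of those in the same range of TPM had one. In the treated library it had one at 5 (6.4%, against 3.3% and 4.1%), namely MRPL9, MRPL21, MRPL44, MRPS15 and MRPS34, all of which also had one without the drug. OCT4 was measured in 1 library a condition with lists of 50775 and 23352 peaks, so the difference has no replicate check, and with the untreated list shortened to the length of the treated one 17 members kept a peak.

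The members were well expressed in untreated SCi-NCCITs and their levels spanned 41.5-fold. Together they made up 7004.9, 6728.9 and 6875.6 TPM without doxycycline, with a median of 67.8 TPM per gene. Of the 78, 72 lay between 10 and 200 TPM, and the SD between libraries was at the median 4.6% of the mean. The total depth on annotated genes was 14683468 to 43443469 estimated counts without doxycycline and 44680610 to 47862394 with it, the first untreated library being the shallowest.

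MRPL47, which encodes the uL29 protein near the exit of the peptide tunnel, and MRPL51 were highest, at 393 ± 22.9 and 381 ± 18.7 TPM (SD, n = 3). The spreads of these overlapped, so their order is not resolved. MRPL20, of an assembly protein of the large subunit, followed at 256 ± 11.5, MRPS15 at 242 ± 2.93 and MRPL18 at 203 ± 10.0 TPM. The lowest was MRPL50 at 9.46 ± 0.547 TPM, below MRPS17 at 14.4 ± 1.16, MRPL57 at 18.5 ± 1.31, MRPL40 at 19.4 ± 0.950 and MRPL1, of the stalk where tRNA leaves, at 21.1 ± 1.41. MRPL57, MRPL40 and MRPL1 overlapped in their spreads, and so did MRPL20 and MRPS15. With doxycycline MRPL47 (422 ± 3.93 TPM) and MRPL51 (396 ± 13.0) were again highest and MRPL50 (9.31 ± 0.623) lowest. The treated mean of MRPL18 (184 ± 15.4) was below that of MRPL37 (192 ± 1.55), but its libraries spanned those of MRPL37. Whether MRPL18 left the 5 highest is thus not resolved.

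**Figure D2:**
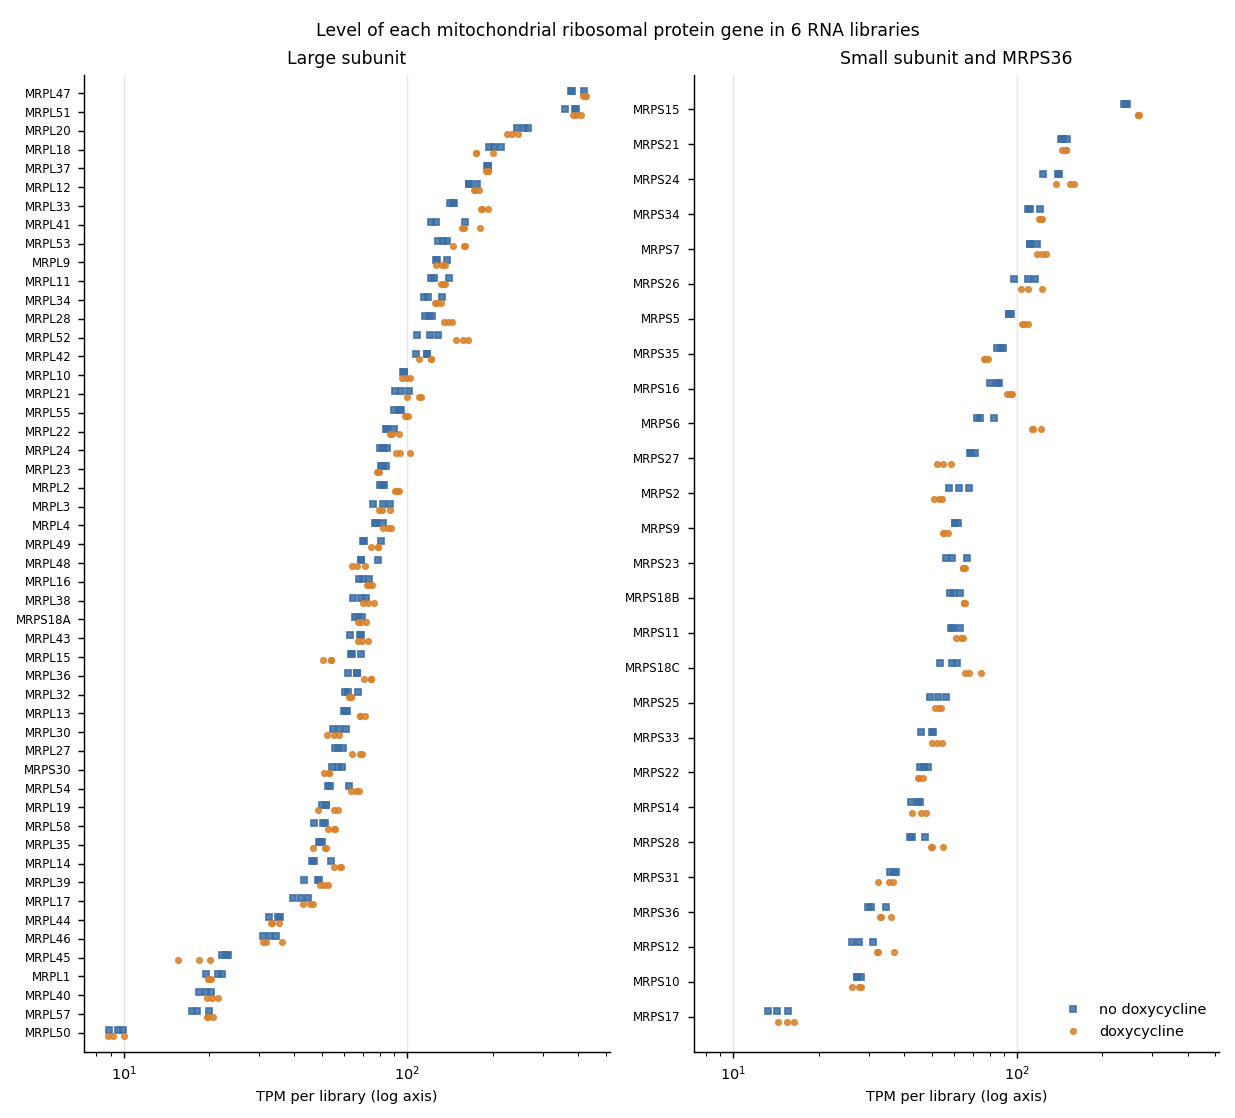
Level of each mitochondrial ribosomal protein gene (rows, ordered by the untreated mean within each panel) in TPM on a log axis. Blue squares are the 3 libraries without and orange circles the 3 libraries with doxycycline. MRPL47 and MRPL51 stand highest and MRPL50 lowest, and the points of MRPS6 run from 72.3 to 82.9 without and from 113 to 121 TPM with doxycycline.

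With doxycycline most of the members were slightly higher, and few of them passed the test. The summed TPM was 7327.2, 7333.5 and 7151.0 with doxycycline (mean 7270.6 ± 103.6, SD), above all 3 untreated values (6869.8 ± 138.1). By edgeR's quasi-likelihood test on all 16370 genes with Benjamini-Hochberg adjustment, 14 members rose, 1 fell and 63 were not called at an adjusted p of 0.05. Over all genes tested, 8.97% were called higher and 8.49% lower. The log2 fold change of 64 of the 78 members was above 0, with a median of 0.11 (range -0.29 to 0.655), against a median of -0.003 over all genes. In CPM (counts scaled to library size), all 3 treated libraries were above all 3 untreated ones for 31 members and below them for 6, against 3135 and 2916 of 16370 genes.

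The count of 14 depended on single libraries, while the median of the members stayed above 0. Leaving out untreated library 2 or treated library 2 left 3 members called higher, leaving out untreated library 3 or treated library 1 left 6, and leaving out untreated library 1, the shallowest, gave 22. The call for MRPL15, the member that fell, was lost without untreated library 2 or 3 or treated library 3. With counts scaled for transcript length 9 members were called higher and 2 lower. These counts are not set beside the calls over all genes under the same settings. Whether the members' calls moved more than those of other genes was not tested. MRPS6, MRPL33 and MRPL28 kept their calls under all 13 alternatives. A member that was not called is not thereby shown to be unchanged. In bulk RNA a change in the share of some cells and a change in RNA per cell cannot be told apart.

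**Figure D3:**
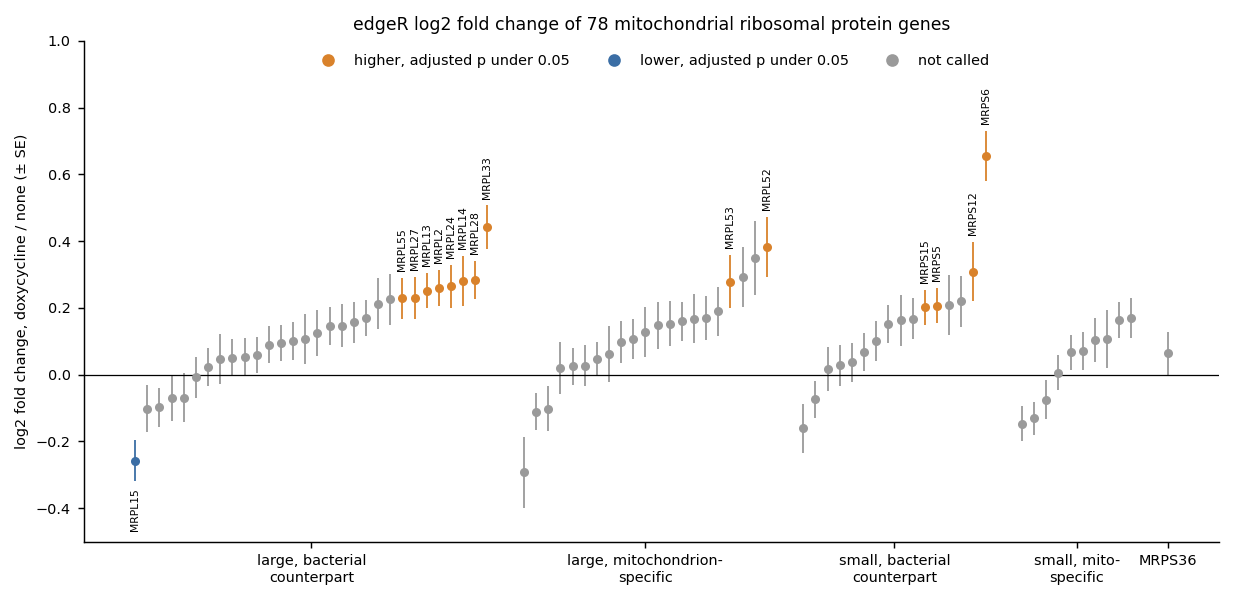
log2 fold change (edgeR, doxycycline against none, bars give the SE) of each member, grouped by subunit and by whether a bacterial counterpart exists. Orange points passed an adjusted p of 0.05 as higher and the blue point (MRPL15) as lower, and grey points were not called. MRPS6 stands highest at 0.655.

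In the small subunit, MRPS6 changed most. This gene (ENSG00000243927, hg19 chr21:35445524-35515334, plus strand) encodes bS6m, a protein of the platform of the subunit. It had 43.5, 43.3 and 50.1 CPM without and 70.3, 77.4 and 68.5 CPM with doxycycline, so the groups were far from overlapping. The log2 fold change was 0.655 with an SE of 0.075 (edgeR adjusted p = 0.000538). SLC5A3, a transporter gene that overlaps MRPS6 on the same strand, had a log2 fold change of 0.28 (SE 0.14, edgeR adjusted p = 0.208). Whether the counting used strand was not given in the sources used here, and reads shared by such a pair could be split between them.

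MRPS12 (ENSG00000128626, hg19 chr19:39421584-39423808), of a protein of the decoding centre whose bacterial counterpart is known for mutations that give antibiotic resistance, had 19.6, 16.4 and 18.0 CPM without and 24.0, 22.1 and 20.4 CPM with doxycycline. These groups did not overlap, but stood only a little apart (log2 fold change 0.31, SE 0.09, edgeR adjusted p = 0.0424). MRPS5, of a protein at the entry of the mRNA channel, had 109, 103 and 106 CPM and then 126, 123 and 118 CPM (log2 fold change 0.21, edgeR adjusted p = 0.0267). The leading transcript of MRPS5 is annotated as a target of nonsense-mediated decay, 12.3% of its TPM was on transcripts annotated as protein-coding, and the call was lost with those alone (log2 fold change 0.15) and with length-scaled counts. MRPS15, an rRNA-binding protein, had 145, 141 and 148 CPM and then 166, 172 and 162 CPM (log2 fold change 0.20, edgeR adjusted p = 0.0271). All 4 of these encode proteins with a bacterial counterpart.

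Of the 16 small subunit genes of that kind 4 rose and none fell, with a median log2 fold change of 0.16. The 10 small subunit genes without a bacterial counterpart had no call in either direction, with a median of 0.07, and their summed TPM was 683.2 ± 18.7 without and 680.9 ± 6.4 with doxycycline (SD, n = 3). Over all genes tested 8.97% were called higher and 8.49% lower, so no call in 10 genes is near the background. An unadjusted p under 0.05 was found for 4 of these 10, and for 5315 of all 16370 genes. MRPS27, an RNA-binding protein of this group, had 110, 114 and 111 CPM without and 98.5, 105 and 98.8 CPM with doxycycline. These did not overlap, but the log2 fold change of -0.15 did not pass (edgeR adjusted p = 0.0856), and with length-scaled counts it was -0.29 (edgeR adjusted p = 0.0335). Whether the 2 classes differ was not tested.

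In the large subunit, 10 of 51 genes rose and 1 fell, where 8.97% of all genes tested were called higher and 8.49% lower. MRPL33 (ENSG00000243147, hg19 chr2:27994584-28210954, plus strand), which encodes the small protein bL33m, had 33.0, 29.9 and 33.7 CPM without and 44.9, 44.7 and 41.6 CPM with doxycycline. The groups were well apart, with a log2 fold change of 0.44 (SE 0.07, edgeR adjusted p = 0.00248). BABAM2, which overlaps it on the same strand, had a log2 fold change of 0.02 (edgeR adjusted p = 0.915). MRPL28 (ENSG00000086504, hg19 chr16:416969-421289, minus strand) had 83.9, 83.0 and 82.1 CPM and then 105, 104 and 94.8 CPM. Its log2 fold change was 0.28 (SE 0.06, edgeR adjusted p = 0.0092), and that of PGAP6, which overlaps it on the same strand, was 0.21 (edgeR adjusted p = 0.122).

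MRPL52 (ENSG00000172590, hg19 chr14:23299088-23304246), of a protein without a bacterial counterpart, had 32.3, 27.8 and 33.9 CPM without and 40.3, 44.5 and 37.8 CPM with doxycycline. The groups did not overlap (log2 fold change 0.38, SE 0.09, edgeR adjusted p = 0.0191). MRPL53, the other such gene that rose, had 34.4, 29.8 and 33.2 CPM and then 39.9, 42.1 and 36.0 CPM. Its log2 fold change was 0.28 (edgeR adjusted p = 0.0405), while CCDC142, which overlaps it on the same strand, was at -0.13 (edgeR adjusted p = 0.32).

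The other 6 genes that rose encode proteins with a bacterial counterpart. MRPL2, of a protein beside the peptidyl transferase centre, had 47.8, 45.4 and 46.2 CPM without and 56.7, 56.7 and 53.4 CPM with doxycycline (log2 fold change 0.26, edgeR adjusted p = 0.011). MRPL13 had 38.0, 38.9 and 39.3 CPM and then 44.9, 47.3 and 46.5 CPM (log2 fold change 0.25, edgeR adjusted p = 0.0117). MRPL14, to whose product the silencing factor MALSU1 binds, had 32.7, 27.0 and 28.5 CPM and then 35.9, 35.0 and 35.4 CPM (log2 fold change 0.28, edgeR adjusted p = 0.0326). These 3 did not overlap between groups, although untreated library 1 came close to the treated ones for MRPL14. MRPL24, MRPL27 and MRPL55 had log2 fold changes of 0.27, 0.23 and 0.23 (edgeR adjusted p = 0.0223, 0.0365 and 0.0309). With length-scaled counts the log2 fold change of MRPL55 was 0.135, and its call was lost there and with protein-coding transcripts only.

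MRPL15 (ENSG00000137547, on chromosome 8), of the uL15 protein, was the member that fell. It had 47.7, 50.1 and 47.9 CPM without and 41.6, 42.4 and 38.0 CPM with doxycycline, with no overlap. The log2 fold change was -0.26 (SE 0.06, edgeR adjusted p = 0.0196). MRPL45, whose product anchors the ribosome to the inner membrane, had a lower point estimate of -0.29 (SE 0.11) that did not pass (edgeR adjusted p = 0.0898). Its values were 23.9, 24.2 and 24.6 CPM without and 20.2, 22.7 and 16.6 CPM with doxycycline, and 5.06% of the counts of MRPL45 and its quantified pseudogenes together were on the pseudogenes. For MRPS31 that share was 35.2%, the highest of all members.

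The 3 paralogs of the bacterial S18 protein, which occupy different sites of the mitochondrial ribosome, had small estimates in 1 direction and no call. Despite this kinship MRPS18A (mL66) and MRPS18B (mS40) were grouped here with the genes without a bacterial counterpart. MRPS18C (bS18m) was grouped with those that have one. MRPS18A was at 0.10, MRPS18B at 0.16 and MRPS18C at 0.17 on the log2 scale (edgeR adjusted p = 0.309, 0.0671 and 0.0966). MRPS30 had a log2 fold change of -0.11 (edgeR adjusted p = 0.206). MRPL58, also known as ICT1, a hydrolase that releases peptides from stalled ribosomes, was at 0.19 (edgeR adjusted p = 0.107). MRPL12, of the stalk that recruits translation factors, was at 0.10 (edgeR adjusted p = 0.259), with 114, 103 and 107 CPM without and 118, 117 and 112 CPM with doxycycline. None of these 6 passed, and the treated and untreated values of MRPS18A and MRPL12 overlapped.

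YY1 peaks were found at members with and without a call. Of the 14 members called higher, 10 had a YY1 peak in all 4 libraries, and of the 63 not called 56 did. The median of the mean fold enrichment was 35.6 over the 13 called higher that had a peak and 35.05 over 61 not called. Among the 13, MRPL52 was the highest of all members at 109.8, and MRPS6 was near the lowest at 3.66. These are counts and medians with no test.

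Most members had several annotated transcripts. The median was 5 transcripts per gene (1 to 34), and the leading transcript held 81.0% of the TPM of the gene at the median. It was annotated as protein-coding for 71 members, as a target of nonsense-mediated decay for 6 and as a retained intron for 1. In MRPS18C the leading transcript (ENST00000507019) held 33.0%, 41.1% and 39.9% of the TPM without and 45.1%, 50.9% and 45.6% with doxycycline, 9.2 percentage points more at the mean. In MRPS33 the leading transcript (ENST00000467334) held 31.5%, 36.6% and 40.9%, and then 48.2%, 41.6% and 43.8%. Neither pair of groups overlapped, but both transcripts were picked because their shares moved most, so these values are a description. Kallisto divides reads among overlapping transcripts by estimation, and no test was run on these shares.

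The calls of other genes of mitochondrial translation are given by list, to be read against the 8.97% of all genes called higher and the 8.49% called lower. Of 5 ribosomal proteins of mitochondria under other symbols 2 rose, CHCHD1 (log2 fold change 0.31, edgeR adjusted p = 0.0272) and AURKAIP1 (0.27, edgeR adjusted p = 0.0432), and none fell. Of 26 assembly factors 25 were tested, 3 rose and 2 fell, which is near the background in both directions. MPV17L2, a membrane protein needed for assembly, had 43.2, 42.5 and 44.7 CPM without and 57.7, 64.3 and 57.9 CPM with doxycycline, with no overlap (log2 fold change 0.46, edgeR adjusted p = 0.00117). RCC1L (0.25) and NGRN (0.23) were also called higher, and the GTPase NOA1 (-0.26) and the rRNA methyltransferase TFB1M (-0.24) lower. Of 15 translation factors TACO1, an activator of MT-CO1 translation, was called higher (0.23, edgeR adjusted p = 0.0267) and none lower.

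Of 20 genes that charge mitochondrial tRNAs 1 rose and 4 fell. MARS2, the methionyl-tRNA synthetase, had 55.9, 59.4 and 60.3 CPM without and 28.3, 28.5 and 26.7 CPM with doxycycline, without overlap (log2 fold change -1.075, SE 0.06, edgeR adjusted p = 5.02e-06). AARS2, the alanyl enzyme, had 62.9, 60.6 and 51.1 CPM and then 32.5, 32.1 and 33.9 CPM (log2 fold change -0.82, edgeR adjusted p = 0.000203). WARS2 (-0.26) and QRSL1 (-0.20) also fell and TARS2 (0.18) rose. These changes of MARS2 and AARS2 were larger than that of any ribosomal protein gene, and the difference was not tested.

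Of the 13 protein-coding genes of mitochondrial DNA, whose mRNAs this ribosome translates, 10 were called higher and none lower. Genes that share an mRNA were counted separately, so these calls are not all of separate molecules. Their summed TPM was 68215.8, 87018.8 and 78475.9 without and 92886.0, 105824.3 and 103964.9 with doxycycline. MT-CYB, of complex III, had 1436, 1836 and 1633 CPM and then 2984, 3633 and 3083 CPM, without overlap (log2 fold change 0.98, SE 0.10, edgeR adjusted p = 0.000287). MT-ATP6 (0.76) and MT-ATP8 (0.75), of ATP synthase, followed. MT-ND4 (0.325), MT-CO1 (0.10) and MT-ND5 (0.10) were not called (edgeR adjusted p = 0.0516, 0.46 and 0.504), and their groups overlapped.

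**Figure D4:**
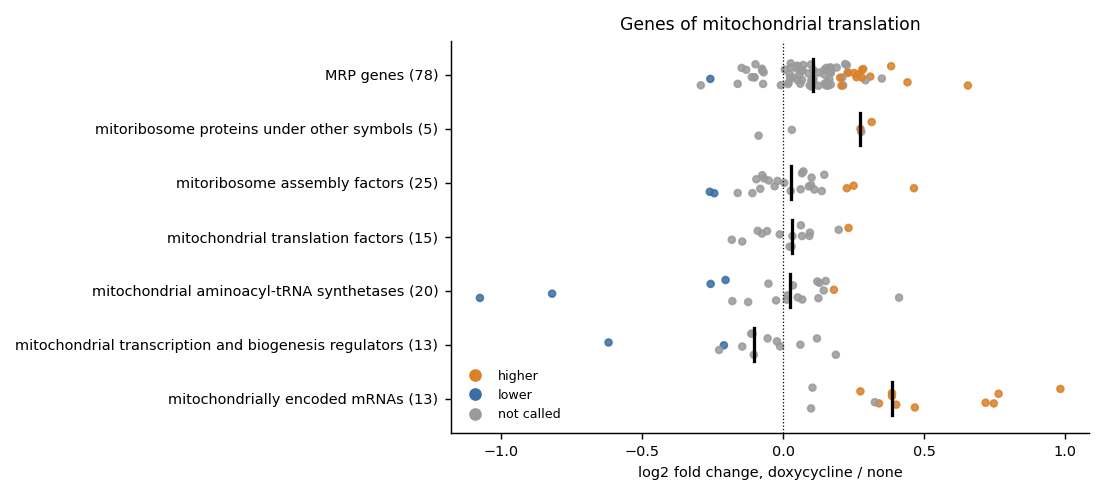
log2 fold change (edgeR, doxycycline against none) of the genes of mitochondrial translation, with 1 point a gene, the number of genes tested in parentheses and the median of each list as a black bar. Orange and blue points passed an adjusted p of 0.05 as higher and lower. The members centre at 0.11 and the mitochondrially encoded mRNAs at 0.39.

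Among 13 regulators of mitochondrial transcription and biogenesis none rose and 2 fell. Over all genes tested 8.97% were called higher and 8.49% lower, so these counts in 13 genes are near the background in both directions. PPARGC1A, a coactivator of mitochondrial biogenesis, had 2.66, 2.96 and 3.55 CPM without and 1.98, 2.20 and 1.89 CPM with doxycycline (log2 fold change -0.62, edgeR adjusted p = 0.0246). TFAM, which packages mitochondrial DNA, fell by 0.21 on the log2 scale (edgeR adjusted p = 0.0281). YY1 itself had 136, 142 and 141 CPM and then 132, 125 and 133 CPM (log2 fold change -0.10, edgeR adjusted p = 0.202). NRF1 and GABPA, whose motifs were searched above, were at -0.11 and -0.11 (edgeR adjusted p = 0.26 and 0.364).

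The induction and the identity of the cells were checked in the same libraries. ZNF10, the gene from which the KRAB domain of such fusions is taken, had 10.0 to 11.8 CPM without and 362 to 459 CPM with doxycycline (log2 fold change 5.19, edgeR adjusted p = 5.6e-08). All 6 markers of embryonal carcinoma cells were expressed in all libraries (summed TPM 1227.7 to 1350.6 without and 986.3 to 1121.5 with doxycycline), and NANOG (-0.57) and TDGF1 (-1.13) fell. The 7 markers of differentiated cells summed to 5.7 to 9.3 TPM without and 6.2 to 9.5 TPM with doxycycline, with AFP, SOX17 and TBXT at 0 to 0.100 TPM in every library, and GATA6 rose (1.46). The part of these marker changes in the result for the ribosomal protein genes was not tested.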

How the data were processed

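RNA was measured in 3 libraries without and 3 with doxycycline, grouped by the labels. For each transcript the authors ran kallisto and deposited an estimated count and a TPM value. Both were summed per gene of GENCODE v44lift37 by transcript identifier, which placed 88.2% of transcripts and 95.85% to 95.96% of counts. Counts were rounded, filtered with filterByExpr, scaled by TMM and tested two-sided by the quasi-likelihood method of edgeR 4.0.16 (R 4.3.3; Benjamini-Hochberg over all genes tested, threshold 0.05), with DESeq2 1.42.0 as an alternative. On simulated data the test recovered most large changes but missed most changes as small as those of the members, and its false calls exceeded the nominal rate. CPM values were normalised by TMM.

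For ChIP-seq the authors aligned reads to hg19 with BWA, removed duplicates and deposited peak lists per library at a 5% FDR, in which the enrichment is a ratio (fold) and p and q are −log10 values. The peak caller was not given in the sources used here, and depth is unknown, so no interval was set on peaks. Peaks were overlapped by at least 1 bp with promoters in Python 3.11.15 (pandas 2.3.3, numpy 2.4.6); figures used matplotlib 3.10.9. HiChIP contacts were not used here.

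Members and lists were chosen with earlier results of these data known. Named genes were members past the threshold (up to 15 rises and 15 falls), the 5 highest and 5 lowest by TPM, MRPS18A, MRPS18B, MRPS18C, MRPS30, MRPL58, MRPL12, MRPS12, up to 3 rises and 3 falls per list, and ZNF10. MRPL45, MRPS27, MRPS31, MRPS33, MRPL36, MRPL37, MRPS11 and MRPL46, the OCT4-bound members, members without a YY1 peak, same-strand neighbours, QRSL1, MT-ND4, MT-CO1, MT-ND5, YY1, NRF1 and GABPA were named after their values were seen. The promoter sequence of MRPS12 is not reported here.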

Additional observations from a re-analysis of the deposited data

How the results depend on the processing

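The median log2 fold change of the members stayed between 0.09 and 0.14 under all 13 alternatives, against -0.01 to 0.01 over all genes. The number called higher was 12 to 17 with DESeq2, DESeq2 size factors, no filter, at least 10 counts in every library, the replicate block or protein-coding transcripts only, with 1 called lower in each. With length-scaled counts it was 9, with 2 lower. Leaving out 1 RNA library at a time gave 3 to 22 called higher and 0 to 2 called lower, and the cause was not tested. The calls over all genes under these settings are not given beside them, so the movement is not shown to be particular to the members. Whether the replicate numbers pair the samples is not resolved. Same-numbered libraries correlated in their deviations at 0.13, 0.08 and -0.001. For untreated libraries 1 and 2 the same-numbered treated library correlated best, while untreated library 3 correlated best with treated library 2 (0.039). Correlations this small among so few libraries cannot decide it. With the replicate block 17 members were called higher and 1 lower. The counts of promoters with YY1 or H3K9me3 peaks moved by less than 1.5 times under all alternatives run, leaving out 1 library included (65 to 74 for YY1 without and 65 to 73 with doxycycline, 0 for H3K9me3). OCT4 had peaks at 17 in place of 35 members with the same number of peaks per library, a shorter list. The first untreated library was the shallowest (14683468 counts), which limits the precision of its values.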
